A study of Bos taurus with 12 samples.

Results

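Pyruvate dehydrogenase kinases switch off the enzyme complex that carries pyruvate from sugar breakdown into mitochondrial oxidation, and uncoupling proteins are carriers of the mitochondrial inner membrane. The genes described here were 4 kinases (PDK1, PDK2, PDK3 and PDK4), the opposing phosphatase PDP1, and the uncoupling proteins UCP2 and UCP3. They were found by taking every probe, control spots aside, whose gene name, gene number, accession or description led to 1 of these 7 genes. That gave 8 probes for 6 of the 7 genes, out of 21475 probes on the array, with 2 probes each for PDK1 and PDP1 and none leading to UCP2. All 8 probes were well above background on 12 of 12 arrays, so the filter on dim probes removed none of them.

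The tissue was biceps brachii from 12 bulls, 18 to 20 months old, with 1 array per animal and 4 animals in each of 3 groups. One group ate dexamethasone, a synthetic glucocorticoid, at 0.75 mg per head over 42 days. Another ate dexamethasone at 0.66 mg per head over 21 days and also clenbuterol, a beta-adrenergic agonist, over 28 days, its dose climbing weekly through 2 mg and 4 mg to a final 6 mg per head. The last group was left untreated as the control. The 12 animals were picked out of 24 for the quality of their RNA rather than at random. Since the dexamethasone dose and duration also differ, a difference between the treated groups cannot be assigned to clenbuterol alone.

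In muscle the balance between glucose and fat as fuel turns largely on whether the pyruvate dehydrogenase complex is active. The kinases phosphorylate and silence it, which spares glucose and pyruvate when fat is burned, and the phosphatases restore it. PDK4 is the kinase known to be induced by fasting and glucocorticoids in rodent and human muscle, and UCP3, the muscle form of the uncoupling proteins, is known to rise with fatty acid supply in rodents.

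Levels below are log2 signals relative to the 75th percentile of the same array, so a value of 0 is a signal equal to that percentile. Differences between groups come from 1 limma fit over the 13660 genes that passed the filter, with p-values adjusted by the Benjamini-Hochberg method over all of them and a call at an adjusted p under 0.05. For PDK1 and PDP1 the probe with the higher mean signal stood for the gene, and the second probe is given beside it. The 2 spots of each probe differed by a median of 0.045 to 0.14 on the log2 scale.

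All 10 skeletal muscle markers on the array were measured, and their mean level was 7.34 ± 0.34 with dexamethasone, 7.33 ± 0.18 with dexamethasone plus clenbuterol and 7.28 ± 0.15 in control (SD, n = 4 each). Markers of other cells were measured too: 9 of 12 adipocyte markers and 14 of 16 leukocyte markers passed the filter, with PPARG and LIPE of fat cells and CSF1R and ITGB2 of leukocytes well above background on 12 of 12 arrays. Others of the same lists were dim, LEP and ITGAM on 0 of 12 arrays and ADIPOQ on 1. Of 9 markers of tissues not sampled, 5 also passed the filter, and APOA1, KRT5, KRT14 and INS were well above background on 12 of 12 arrays. Detection alone therefore does not show that a cell type was present. Arrays were scanned on 4 days, and scan day 2 held 7 arrays: dexamethasone replicates 1 to 3, dexamethasone plus clenbuterol replicates 1 to 3 and control replicate 4. Negative-control spots were brighter on those 7 arrays (mean signal of 67.3 to 92.5) than on the other 5 (30.8 to 43.7). The share of spots well above background was 53.2% to 68.7% per array. Slide 1 held control replicates 1 to 3, and slide 2 held control replicate 4 with dexamethasone replicates 1 to 3. Slide 3 held dexamethasone plus clenbuterol replicates 1 to 3, and replicate 4 of each treated group was on slide 4 or 5. No dexamethasone plus clenbuterol array shared a slide with another group, so slide and that treatment cannot be told apart.

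Of the 6 measured genes, PDK4 had the smallest p-value in each comparison with control, and 0 of the 6 passed the adjusted threshold in any comparison. Of all 13660 genes, limma called 0.615% for dexamethasone against control, 0.0439% for dexamethasone plus clenbuterol against control, 0.0146% between the treated groups and 0.242% for both treated groups against control. At an unadjusted p under 0.05, 1 of the 6 (PDK4) passed in each comparison with control, as did 12.3% of all genes for dexamethasone, 12.1% for dexamethasone plus clenbuterol and 13% for both treated groups. Between the treated groups 0 of the 6 did, against 11% of all genes. The 6 genes had a median log2 change of -0.13 with dexamethasone and -0.24 with dexamethasone plus clenbuterol, beside 0.034 and 0.032 over all genes.

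PDK4 was also the 1 probe of the 8 with no overlap between dexamethasone and control animals, as 6.45% of all genes had none, and between dexamethasone plus clenbuterol and control, as 8.24% of all genes had none. Between the treated groups 0 of the 8 probes were without overlap, against 5.3% of all genes. A single probe of 8 is not far from those background shares.

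**Figure D1:**
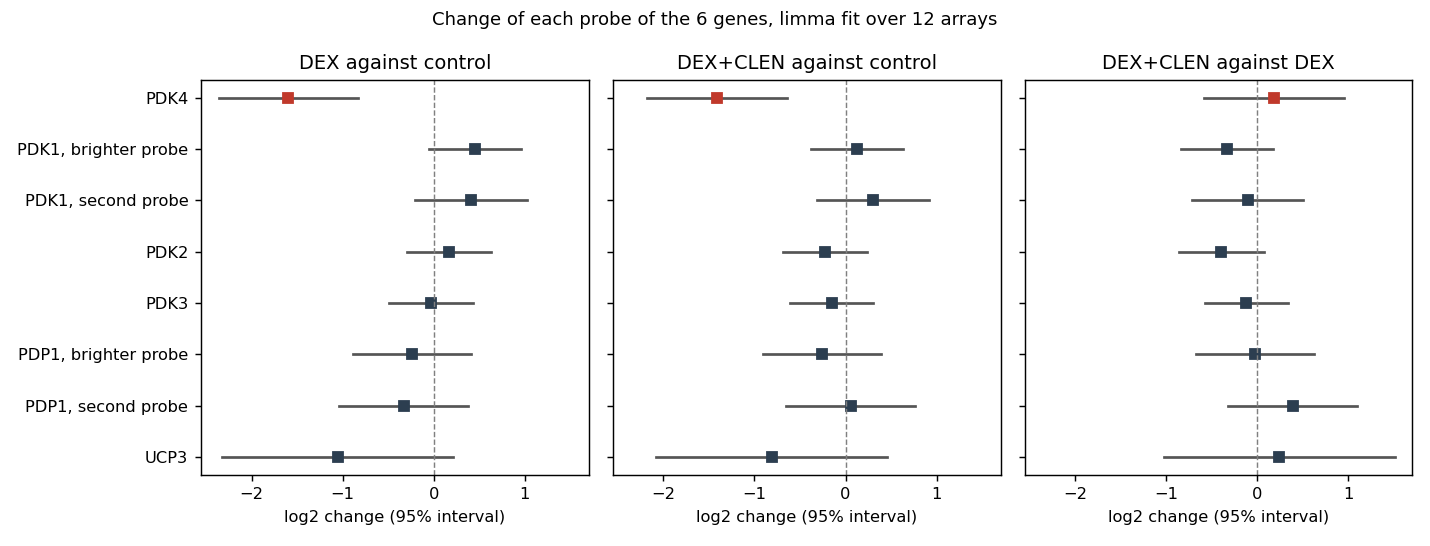
Squares are log2 changes of each of the 8 probes in the 3 comparisons, with 95% intervals from the limma fit (horizontal axis). Of the 8 probes, only PDK4 has intervals against control that exclude 0, at -2.36 to -0.83 with dexamethasone and -2.18 to -0.64 with dexamethasone plus clenbuterol.

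PDK4 was lower in every treated animal than in every control animal, by about 3.02-fold with dexamethasone and 2.66-fold with dexamethasone plus clenbuterol, but neither difference passed the adjusted threshold. The probe A_73_119171, matched through the human gene in its description, read 2.25, 3.68, 2.77 and 3.43 in the dexamethasone animals. It read 3.67, 2.75, 2.75 and 3.69 in the animals given dexamethasone plus clenbuterol, and 4.24, 4.46, 4.54 and 5.26 in control animals. The lowest control animal thus lay above the highest of the 8 treated animals, while the 2 treated groups overlapped. Of the 13660 genes, 109 (0.798%) had all 8 treated animals below all 4 control animals.

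Mean PDK4 levels were 3.03 ± 0.65 with dexamethasone, 3.22 ± 0.53 with dexamethasone plus clenbuterol and 4.63 ± 0.44 in control (SD, n = 4 each). On the linear scale these means are 8.17, 9.30 and 24.7 times the 75th percentile signal. The log2 change with dexamethasone against control was -1.60 ± 0.35 (SE; 95% interval -2.36 to -0.83; limma adjusted p = 0.0758), rank 120 of 13660 genes by p. The same contrast for dexamethasone plus clenbuterol gave -1.41 ± 0.35 (95% interval -2.18 to -0.64; limma adjusted p = 0.186). These comparisons share the 4 control arrays, so their likeness is not independent evidence. In bulk muscle, fewer cells of a type and less RNA per cell cannot be told apart.

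The treated groups differed from each other in PDK4 by 0.19 ± 0.35 (dexamethasone plus clenbuterol minus dexamethasone; 95% interval -0.58 to 0.95; limma adjusted p = 0.889). That interval leaves room for a difference of nearly 1 log2 unit upward. When the mean of both treated groups was set against control, the PDK4 change was -1.50 ± 0.31 (95% interval -2.17 to -0.84; limma adjusted p = 0.0731), rank 63 by p. It passed in 0 of the alternatives tried for that pooled contrast, the lowest limma adjusted p being 0.0511.

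**Figure D2:**
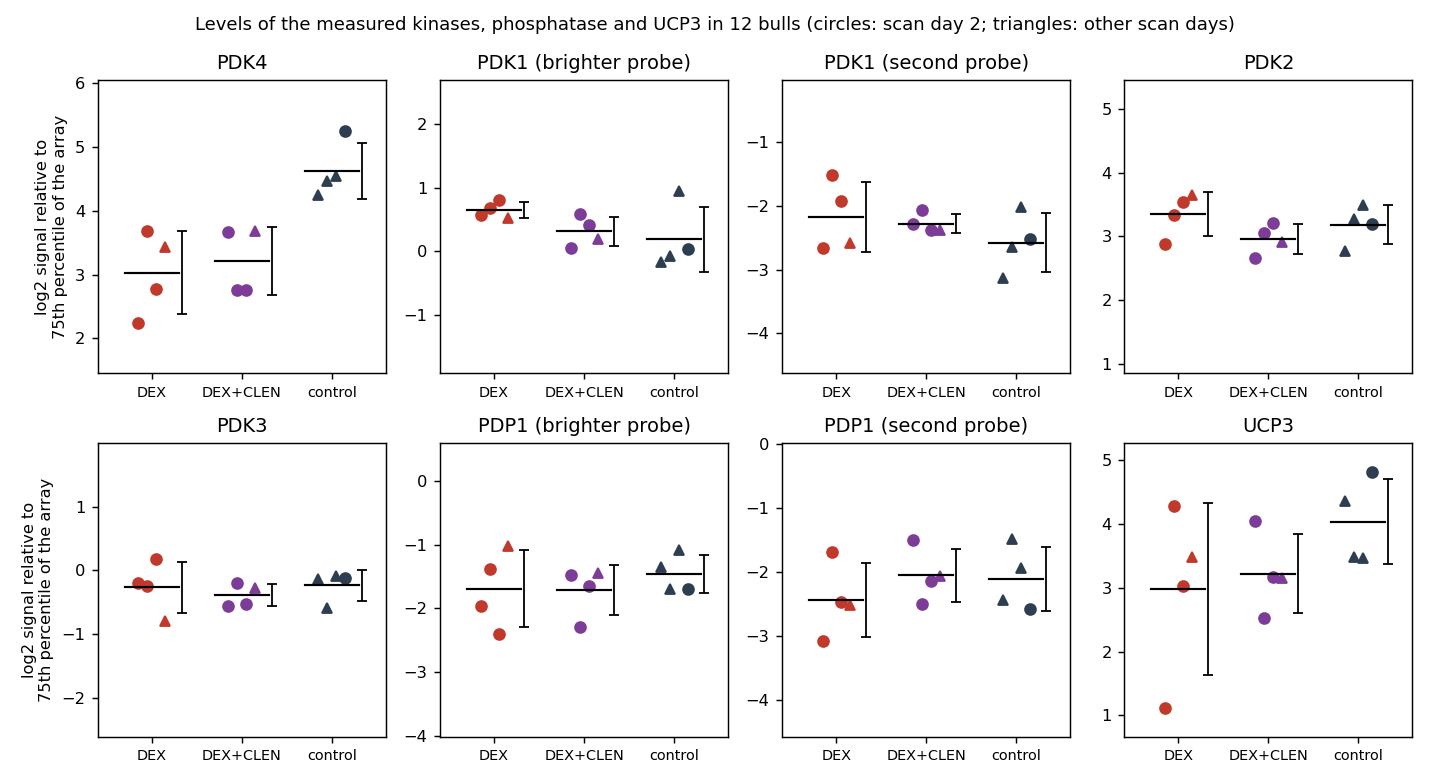
Each panel shows 1 probe of the 6 measured genes, with the log2 signal relative to the array's 75th percentile on the vertical axis and 1 point per animal (circles: scan day 2; triangles: other scan days). Horizontal lines are group means and bars are SD (n = 4 each; DEX: dexamethasone; DEX+CLEN: dexamethasone plus clenbuterol). All 8 treated animals lie below the 4 control animals for PDK4, and the groups overlap in the other 7 panels.

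The size of the PDK4 difference was not the same across scan days. Within scan day 2, where only control replicate 4 represents the controls, the mean differences from control were -2.36 with dexamethasone and -2.20 with dexamethasone plus clenbuterol. Over the other scan days, with 1 treated animal of each group against 3 controls, they were -0.99 and -0.73. Those 3 controls were scanned on day 1, dexamethasone replicate 4 on day 3 and dexamethasone plus clenbuterol replicate 4 on day 4. Treatment and scan day therefore cannot be told apart outside scan day 2. Control replicate 4 had the highest PDK4 level of all 12 animals, and the direction was the same on both sides of the split. The part that scan day or background brightness has in these values was not tested.

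The PDK4 call depended on the setting. Of the 22 fitted alternatives for dexamethasone against control, 1 took PDK4 past the threshold: the authors' deposited value table in place of the scanner signals, with a log2 change of -1.73 and a limma adjusted p of 0.0498. The direction was the same in all of them.

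**Figure D3:**
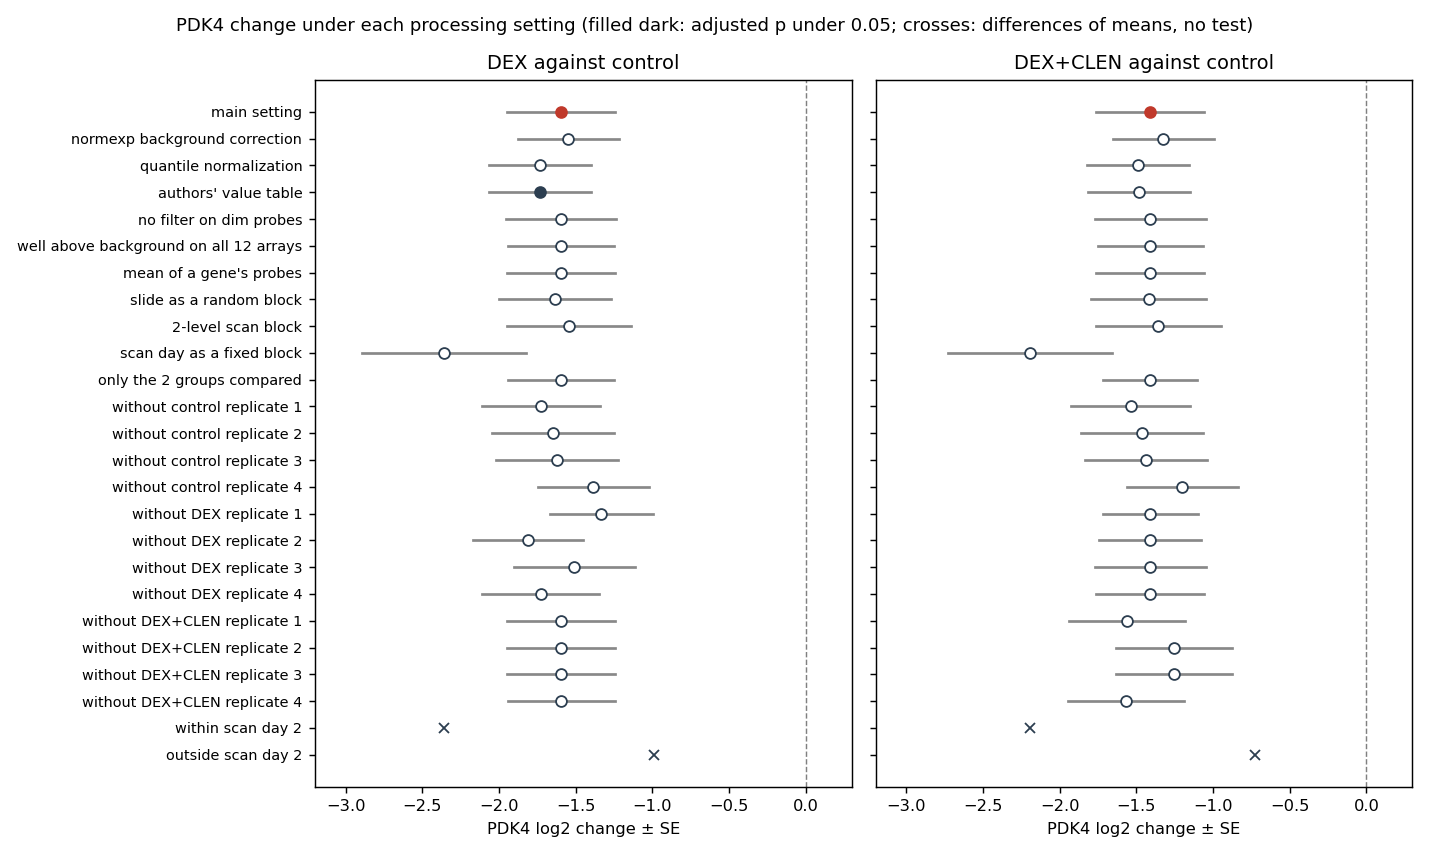
The log2 change of PDK4 with its SE (horizontal axis) is shown for each processing setting and each left-out animal, for dexamethasone against control and for dexamethasone plus clenbuterol against control. The main values of -1.60 and -1.41 are in red, crosses mark differences of means with no test, and every point lies left of 0, between -2.36 and -0.73.

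The other 3 kinases passed the threshold in 0 of the comparisons. PDK1, a kinase known to be induced by low oxygen in human and mouse cells, read 0.56, 0.68, 0.81 and 0.53 with dexamethasone at its first probe. The readings were 0.06, 0.58, 0.42 and 0.19 with dexamethasone plus clenbuterol, against -0.17, -0.07, 0.94 and 0.04 in control. Dexamethasone animals were tightly grouped and lay above 3 of the 4 controls, with control replicate 3 above all of them. The log2 change of PDK1 with dexamethasone was 0.46 ± 0.23 (95% interval -0.05 to 0.96; limma adjusted p = 0.453). For dexamethasone plus clenbuterol it was 0.12 ± 0.23 (95% interval -0.38 to 0.63; limma adjusted p = 0.861).

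The second PDK1 probe, A_73_102744, gave changes of the same sign, 0.41 with dexamethasone and 0.30 with dexamethasone plus clenbuterol. Its readings were -2.66, -1.52, -1.92 and -2.59 with dexamethasone, -2.28, -2.06, -2.39 and -2.38 with dexamethasone plus clenbuterol, and -3.13, -2.65, -2.01 and -2.53 in control. The 3 groups overlapped at this probe. A further probe, named LOC614996 in the files and described there as similar to PDK1, was not counted with PDK1, because the gene table used for names does not link that number to it. Its log2 change with dexamethasone was 0.46 ± 0.24 in the limma fit over single probes (adjusted p = 0.465).

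PDK2, the kinase expressed in most tissues including muscle, read 2.88, 3.34, 3.54 and 3.65 with dexamethasone. It read 2.66, 3.06, 3.22 and 2.91 with dexamethasone plus clenbuterol, and 2.78, 3.28, 3.50 and 3.19 in control. The spread within each group was as wide as the distance between groups. The log2 change of PDK2 was 0.17 ± 0.21 with dexamethasone (95% interval -0.30 to 0.63) and -0.23 ± 0.21 with dexamethasone plus clenbuterol (95% interval -0.69 to 0.24), with limma adjusted p of 0.801 and 0.693. Between the treated groups PDK2 gave -0.39 ± 0.21 (dexamethasone plus clenbuterol minus dexamethasone; 95% interval -0.86 to 0.07; limma adjusted p = 0.541), the smallest p of the 6 genes in that comparison.

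PDK3, a kinase of narrower tissue range, read -0.20, -0.24, 0.18 and -0.80 with dexamethasone. It read -0.55, -0.20, -0.52 and -0.27 with dexamethasone plus clenbuterol, and -0.14, -0.59, -0.09 and -0.13 in control. No group stood apart, and control replicate 2 was well below the other 3 controls. The log2 changes were -0.03 ± 0.21 with dexamethasone (95% interval -0.48 to 0.43) and -0.15 ± 0.21 with dexamethasone plus clenbuterol (95% interval -0.61 to 0.30), with limma adjusted p of 0.974 and 0.807. A probe named LOC533234 and described as similar to PDK3 was well above background on 1 of 12 arrays and is not counted with PDK3.

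The difference between PDK4 and the other kinases was itself tested, a comparison chosen with earlier results of these data known. For each animal the level of another kinase was subtracted from that of PDK4, and the groups of 4 were compared by an exact two-sided permutation test, whose 70 arrangements allow no p below 0.0286. Against PDK2, the difference averaged -0.32 ± 0.50 with dexamethasone, 0.26 ± 0.75 with dexamethasone plus clenbuterol and 1.44 ± 0.45 in control (SD, n = 4 each). Only the shift of such a difference between groups can be read, since the level of 1 probe cannot be set against another's.

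With dexamethasone, PDK4 moved relative to PDK1 by -2.05, relative to PDK2 by -1.76 and relative to PDK3 by -1.57 on the log2 scale. Each had an exact permutation p of 0.0286, or 0.0343 adjusted over the 6 pairs. In the combined treatment the shifts were -1.53 against PDK1 (adjusted exact permutation p = 0.0571), -1.18 against PDK2 and -1.26 against PDK3 (adjusted exact permutation p = 0.0343 for both). In 5 of the 6 pairs the values of the treated and control animals did not overlap. Any pair without overlap gives the smallest possible p of 0.0286, and PDK4 by itself already had no overlap with control. The pairs share the PDK4 values and the control animals, so they are not separate pieces of evidence. They do not stand in for the limma test of PDK4, which did not pass.

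These permutations treat the animals as exchangeable, although 3 of 4 animals in each treated group and 1 of 4 controls were scanned on day 2. Within scan day 2 the shifts of PDK4 relative to PDK1, PDK2 and PDK3 were -2.997, -2.42 and -2.40 with dexamethasone, and -2.50, -1.98 and -1.90 with dexamethasone plus clenbuterol. Outside it they were -1.28, -1.46 and -0.46 with dexamethasone, and -0.68, -0.46 and -0.73 with dexamethasone plus clenbuterol. The direction was the same in every case, and the size was smaller outside scan day 2. When animals were shuffled only within those scan strata, a check added after seeing the data, each pair had an exact permutation p of 0.0625, the smallest that the 16 arrangements allow. Outside scan day 2 no day held both treated and control animals, so this shuffle does not account for scan day.

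PDP1, the calcium-sensitive phosphatase that reactivates the complex in muscle, read -1.96, -1.38, -2.39 and -1.03 with dexamethasone at the probe that stood for it. It read -1.48, -2.29, -1.65 and -1.44 with dexamethasone plus clenbuterol, and -1.36, -1.69, -1.08 and -1.69 in control. The groups overlapped. The log2 change was -0.24 ± 0.30 with dexamethasone (95% interval -0.88 to 0.41; limma adjusted p = 0.800) and -0.26 ± 0.30 with dexamethasone plus clenbuterol (95% interval -0.91 to 0.39; limma adjusted p = 0.756).

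The second PDP1 probe, A_73_110779, read -3.09, -1.69, -2.47 and -2.52 with dexamethasone, -1.51, -2.50, -2.15 and -2.07 with dexamethasone plus clenbuterol, and -2.44, -1.48, -1.95 and -2.59 in control. Its changes were -0.33 with dexamethasone and 0.06 with dexamethasone plus clenbuterol. The sign therefore differed between the PDP1 probes for the combined treatment, with both intervals spanning 0.

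UCP3 was the gene with the widest spread among animals. It read 1.12, 4.29, 3.03 and 3.49 with dexamethasone, 4.04, 2.53, 3.17 and 3.15 with dexamethasone plus clenbuterol, and 4.36, 3.49, 3.47 and 4.81 in control. Below all controls lay 2 of the 4 dexamethasone animals and 3 of the 4 animals of the combined treatment. Dexamethasone replicates 2 and 4 and the first animal of the combined treatment lay within the control range. The means were 2.98 ± 1.35, 3.22 ± 0.62 and 4.03 ± 0.67 in that order (SD, n = 4 each).

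The log2 change of UCP3 was -1.05 ± 0.58 with dexamethasone (95% interval -2.32 to 0.22; limma adjusted p = 0.497) and -0.81 ± 0.58 with dexamethasone plus clenbuterol (95% interval -2.08 to 0.46; limma adjusted p = 0.597). Neither passed, and both intervals span 0. Without dexamethasone replicate 1 the UCP3 change with dexamethasone was -0.43. Within scan day 2 the differences from control were -2.00 and -1.57, and over the other days -0.29 and -0.62. UCP1, the uncoupling protein of brown fat, was well above background on 2 of 12 arrays and was not tested.

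**Figure D4:**
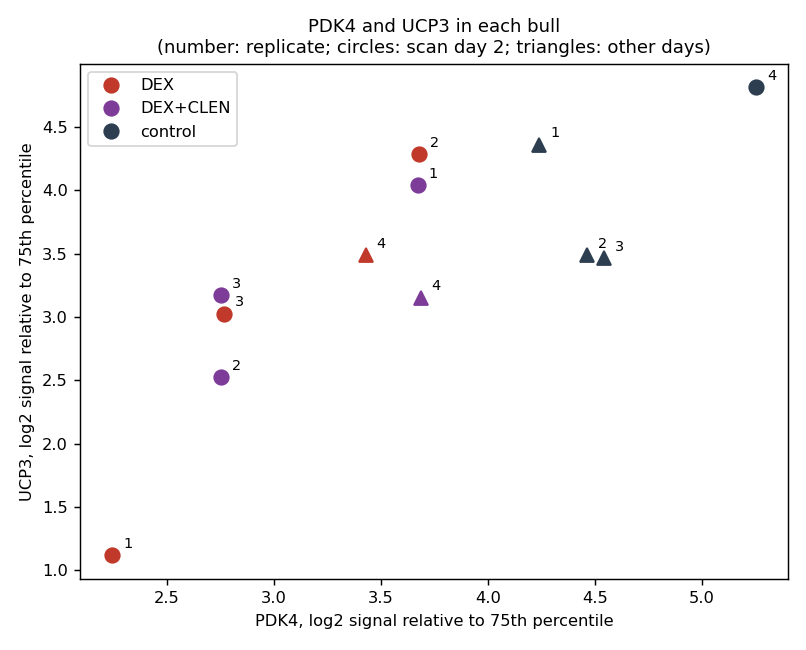
Each point is 1 animal, with its PDK4 level on the horizontal axis and its UCP3 level on the vertical axis, both as log2 signal relative to the array's 75th percentile. Dexamethasone replicate 1 is lowest for both genes (2.25 and 1.12) and control replicate 4 is highest for both (5.26 and 4.81).

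The animals lowest and highest for PDK4 were also the lowest and highest for UCP3. Over the 12 arrays their levels had a Pearson correlation of 0.79, and 0.80 for deviations from the group means, which is given as a description. PDK1, PDK2, PDK3 and PDP1 had correlations with PDK4 of -0.45, 0.06, -0.006 and 0.51. Of the 11185 other genes with a symbol, UCP3 ranked 49 in likeness to PDK4, and PDK4 ranked 69 in likeness to UCP3.

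The genes whose levels were most like PDK4 over the 12 arrays were CHRNA3 (r = 0.97), ACACB (0.91), SLC16A6 (0.91), OIP5 (0.90) and MAF (0.90). CHRNA3 encodes a nicotinic receptor subunit, ACACB the mitochondrial acetyl-CoA carboxylase that makes the inhibitor of fatty acid import, and MAF a transcription factor. The likeness was not seen at the other probes of these genes: the second CHRNA3 probe had an r of 0.11 with PDK4 and the other 2 ACACB probes had r of 0.075 and 0.34. The genes most like UCP3 were ZBTB40 (r = 0.95), GCAT (0.93), SH3RF2 (0.92), PHKB (0.89) and RTN4RL1 (0.88), the last with an r of 0.66 at its other probe. PHKB is a subunit of the kinase that activates glycogen breakdown.

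The list of the complex and its regulators also holds PDK4 and other kinases, so its median is not that of the subunits alone. Of 16 listed genes for the complex and its regulators, 15 were tested and 0 passed in either comparison with control, with median log2 changes of -0.013 with dexamethasone and -0.12 with dexamethasone plus clenbuterol. PDHA1, the catalytic subunit that the kinases phosphorylate, read -1.37, 0.79, -0.22 and -0.88 with dexamethasone, -0.59, -1.69, -1.13 and -0.94 with dexamethasone plus clenbuterol, and -0.74, 0.06, -0.43 and -0.51 in control. In the combined treatment 3 of 4 animals lay below all controls, and the first lay within the control range. Its log2 change was -0.01 ± 0.40 with dexamethasone and -0.68 ± 0.40 with dexamethasone plus clenbuterol (limma adjusted p = 0.995 and 0.509).

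PDHX, which anchors the third enzyme of the complex, gave -0.24 ± 0.19 with dexamethasone and -0.42 ± 0.19 with dexamethasone plus clenbuterol (limma adjusted p = 0.670 and 0.404). DLAT, the acetyl-transferring core, gave 0.36 ± 0.33 and -0.12 ± 0.33 in the same comparisons, and DLD, the shared dehydrogenase, -0.04 ± 0.22 and -0.42 ± 0.22. The other phosphatase subunits, PDP2 (-0.37 and 0.34) and PDPR (0.031 and 0.0027), did not pass either. PDHB was on the array but too dim to be tested.

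Genes that bring pyruvate to the complex or divert it had a median log2 change of 0.37 with dexamethasone and -0.03 with dexamethasone plus clenbuterol over 14 tested genes, of which 0 passed. With dexamethasone the smallest p-values were those of SLC16A1, the monocarboxylate transporter of lactate and pyruvate (0.76 ± 0.25; limma adjusted p = 0.237), and MPC1, a subunit of the mitochondrial pyruvate carrier (0.50 ± 0.17; limma adjusted p = 0.240). MPC1 read 6.85, 6.75, 7.14 and 6.75 with dexamethasone, 6.15, 6.44, 6.31 and 6.49 with dexamethasone plus clenbuterol, and 6.27, 6.08, 6.71 and 6.43 in control. The dexamethasone animals lay above all animals of the combined treatment and, narrowly (6.75 against 6.71), above all controls. Of all genes, 2.52% lay wholly above control with dexamethasone, and 2.77% lay wholly below dexamethasone in the combined treatment. For the combined treatment the smallest p-values of this list were those of the malic enzymes ME3 (0.98 ± 0.54) and ME1 (0.32 ± 0.19), with limma adjusted p of 0.477 and 0.507.

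Of 23 tested genes of glucose uptake, glycogen and glycolysis, 0 passed, with medians of -0.14 with dexamethasone and 0.06 with dexamethasone plus clenbuterol. PFKFB4 and PFKFB3, which set the level of the activator of phosphofructokinase, had the smallest p-values of that list, PFKFB4 for dexamethasone and PFKFB3 for the combined treatment. PFKFB4 read 1.32, 3.17, 2.81 and 4.69 with dexamethasone, 5.31, 2.75, 5.07 and 5.12 with dexamethasone plus clenbuterol, and 5.88, 5.40, 5.16 and 5.17 in control, a change of -2.40 ± 0.67 with dexamethasone (limma adjusted p = 0.147). PFKFB3 read 3.48, 5.01, 4.23 and 4.99 with dexamethasone, 4.16, 1.36, 3.64 and 2.76 with dexamethasone plus clenbuterol, and 5.38, 5.72, 4.81 and 6.82 in control, a change of -2.70 ± 0.59 with the combined treatment (limma adjusted p = 0.160). All 4 animals were below all 4 controls in both cases, as for 3.93% of all genes with dexamethasone and 3.73% with the combined treatment.

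TBC1D4, which gates the insulin-dependent glucose transporter, gave 3.32 ± 1.16 with dexamethasone (limma adjusted p = 0.258), with control replicate 3 at 1.89 and the other 3 controls between -3.40 and -3.06. TXNIP, an inhibitor of glucose uptake, gave -1.01 ± 0.30 with dexamethasone plus clenbuterol (limma adjusted p = 0.255).

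Of 32 tested genes of fatty acid uptake and oxidation, 27 had a log2 change above 0 with dexamethasone and 19 with dexamethasone plus clenbuterol, and 0 passed in either comparison. The medians were 0.39 and 0.06, beside 0.034 and 0.032 over all genes. Of all 13660 genes, 6199 and 6315 were below 0 in the same comparisons, so a majority lay above 0. Of 11 tested slow fibre genes 0 passed, while 10 had a log2 change above 0 with dexamethasone and 9 with dexamethasone plus clenbuterol. Their mean level per animal was 4.70 to 6.03 with dexamethasone, 4.84 to 5.93 with dexamethasone plus clenbuterol and 4.25 to 5.38 in control, so the groups overlapped. Of 10 tested fast fibre genes 0 passed either, and their mean level was 3.96 to 5.85 with dexamethasone, 4.99 to 6.07 with dexamethasone plus clenbuterol and 4.78 to 5.37 in control. The part of fibre type in the fatty acid values was not tested. ACSL1, which activates fatty acids, gave 0.61 ± 0.21 with dexamethasone (limma adjusted p = 0.256), and PLIN5, a coat protein of lipid droplets in muscle, gave 0.91 ± 0.31 with dexamethasone plus clenbuterol (limma adjusted p = 0.299).

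ACACB gave -1.67 ± 0.56 with dexamethasone and -1.45 ± 0.56 with dexamethasone plus clenbuterol at the probe that stood for it (limma adjusted p = 0.240 and 0.354). Its other probes gave -0.21 and -1.39 with dexamethasone and 0.11 and 0.17 with dexamethasone plus clenbuterol, so the probes of this gene disagree.

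Among 10 tested mitochondrial carriers of the family to which UCP3 belongs, 0 passed, with medians of 0.005 with dexamethasone and -0.19 with dexamethasone plus clenbuterol. With dexamethasone UCP3 had the smallest p of that list, followed by SLC25A5, an ADP/ATP carrier (0.46 ± 0.32; limma adjusted p = 0.622). In the combined treatment they were those of SLC25A12, an aspartate-glutamate carrier (-0.75 ± 0.24; limma adjusted p = 0.272), and SLC25A30 (-0.57 ± 0.21; limma adjusted p = 0.340).

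**Figure D5:**
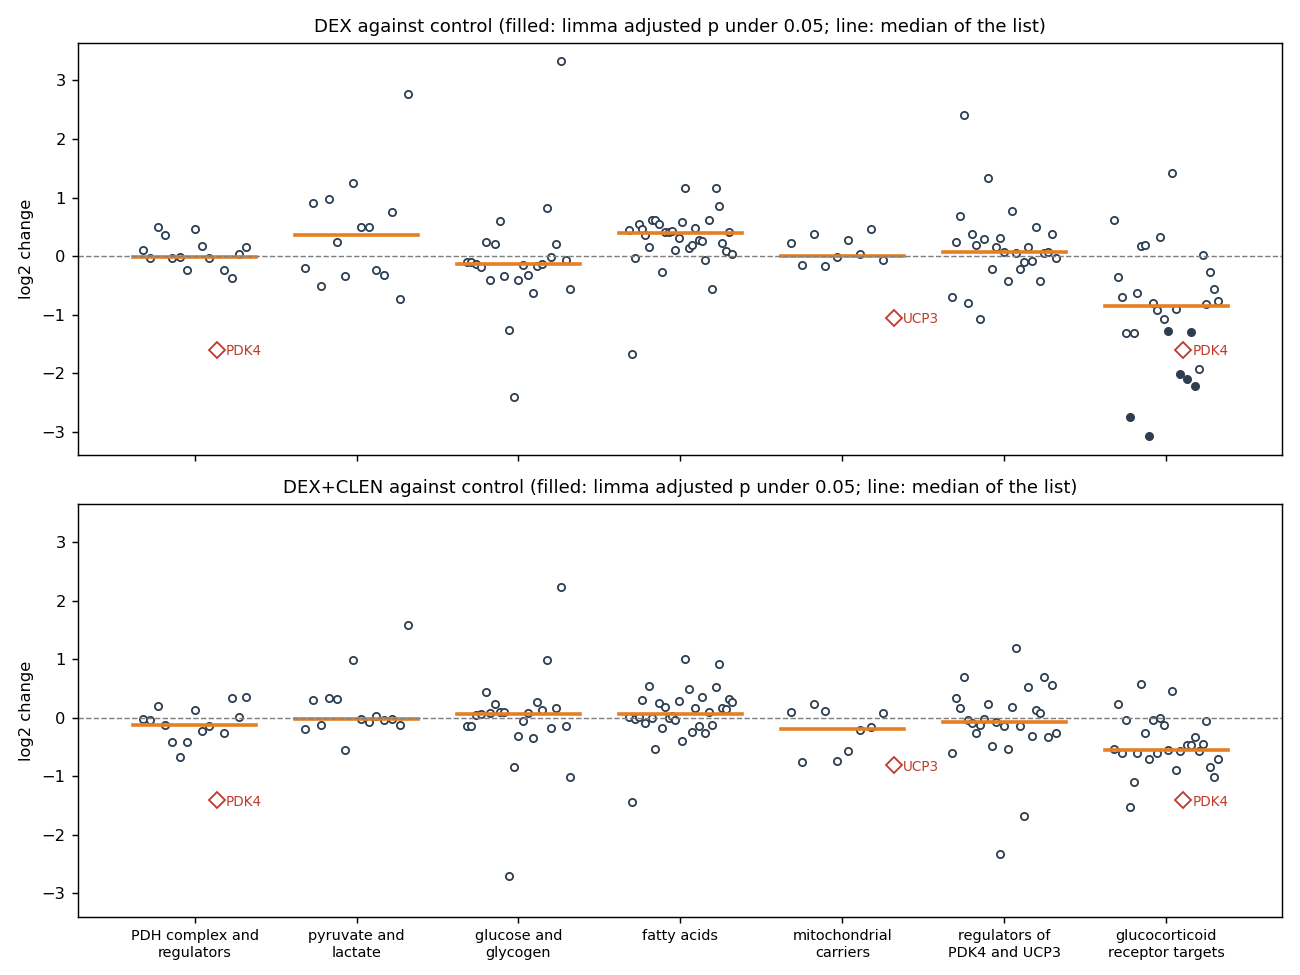
Each point is the log2 change of 1 tested gene of 7 lists, for dexamethasone against control and for dexamethasone plus clenbuterol against control, with orange lines at the list medians. Filled points passed limma's adjusted p under 0.05, which 7 glucocorticoid receptor targets and 0.615% of all genes did with dexamethasone. PDK4 and UCP3 are marked by diamonds, at -1.60 and -1.05 with dexamethasone and -1.41 and -0.81 with dexamethasone plus clenbuterol.

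The known regulators of PDK4 and UCP3 were measured on the same arrays. Of 27 tested, 0 passed in either comparison with control, with medians of 0.07 with dexamethasone and -0.07 with dexamethasone plus clenbuterol. FOXO3, a forkhead factor that activates PDK4 in cultured muscle and liver cells, read 2.59, 2.27, 2.32 and 2.04 with dexamethasone, 3.24, 3.02, 2.74 and 3.26 with dexamethasone plus clenbuterol, and 3.35, 3.09, 2.95 and 3.06 in control. The dexamethasone animals lay below every other animal for FOXO3. Of all genes, 3.93% lay wholly below control with dexamethasone, and 2.53% lay wholly above dexamethasone in the combined treatment. The log2 change of FOXO3 was -0.81 ± 0.17 with dexamethasone against control (limma adjusted p = 0.0682). For dexamethasone plus clenbuterol against dexamethasone it was 0.76 ± 0.17 (limma adjusted p = 0.163).

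NR3C1, the glucocorticoid receptor, gave -0.22 ± 0.25 with dexamethasone and -0.48 ± 0.25 with dexamethasone plus clenbuterol (limma adjusted p = 0.776 and 0.459). KLF15, a glucocorticoid-induced factor that acts on fuel genes, gave -1.08 ± 0.58 and -0.12 ± 0.58 (limma adjusted p = 0.483 and 0.955). It was dim with dexamethasone, at a mean of -4.29 and well above background on 2 of 4 arrays. PPARA, a fatty acid receptor, gave 0.77 ± 0.43 and 0.18 ± 0.43 (limma adjusted p = 0.496 and 0.897). PPARGC1A, a coactivator of mitochondrial genes, read 3.59, 5.63, 5.99 and 6.88 with dexamethasone, 2.81, 4.42, 2.52 and 5.98 with dexamethasone plus clenbuterol, and 6.71, 6.02, 4.18 and 5.55 in control. The groups overlapped and its change with dexamethasone plus clenbuterol was -1.68 ± 0.84 (limma adjusted p = 0.442). PPARD was dim, well above background on 0 dexamethasone, 3 dexamethasone plus clenbuterol and 1 control array.

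MYOD1, the muscle determination factor that also acts on the UCP3 promoter in human cells, gave 1.33 ± 0.31 with dexamethasone (limma adjusted p = 0.0828). All 4 dexamethasone animals (2.65 to 4.27) lay above all 4 controls (1.80 to 2.33), as for 2.52% of all genes. In the combined treatment the smallest p-values of this list were those of STAT5B (0.70 ± 0.22; limma adjusted p = 0.267) and THRA, a thyroid hormone receptor (0.57 ± 0.20; limma adjusted p = 0.315). FOXO1 had no probe on the array under that name.

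PDK4 is also a known glucocorticoid receptor target, and that list did hold called genes. The list was chosen with earlier results of these data known. Of 28 tested targets, 7 fell with dexamethasone and 0 rose, with a median log2 change of -0.86 and 22 below 0. Calls over all 13660 genes also went mostly down, with 80 lower (0.586%) and 4 higher (0.0293%), while 6199 genes were below 0. In the combined treatment 0 of the 28 targets passed, while 25 were below 0 and their median was -0.55. Over all genes 6315 were below 0 in that comparison. RASD1, a small GTPase, and NFKBIA, the inhibitor of NF-kappa-B, fell with dexamethasone by 2.21 and 2.01 on the log2 scale (limma adjusted p = 0.00242 and 0.00927). CRISPLD2 fell by 2.75 (limma adjusted p = 0.0043), though its other probe gave -0.095. Of the 28 targets, limma called 3 with dexamethasone when dim probes were not filtered out, in a fit that called 25 of 19715 genes. It called 2 (RASD1 and CRISPLD2) with a 2-level scan block and 0 with a fixed block for scan day, beside 13 and 0 of all 13660 genes. In the other settings it called 5 (slide as a random block) to 8 (the authors' value table), beside 56 to 85 of all genes. With 1 animal left out it called 3 to 8, beside 24 to 261 of all genes.

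RASD1 is set beside PDK4 because it passed between the treated groups. It read 0.24, -0.52, -0.39 and 0.12 with dexamethasone, 2.02, 1.21, 1.61 and 2.16 with dexamethasone plus clenbuterol, and 1.84, 1.95, 2.25 and 2.27 in control. It was higher with dexamethasone plus clenbuterol than with dexamethasone by 1.89 ± 0.24 (limma adjusted p = 0.0319), the comparison in which PDK4 gave 0.19 ± 0.35. That call did not hold with quantile normalization, with no filter on dim probes, with the mean of a gene's probes, with slide or either form of scan day as a block, with only the 2 groups compared, or in 9 of the 12 fits that left out 1 animal. Whether the 2 genes differ in that comparison was not tested.

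Of 11 tested fibroblast markers, 0 passed in any comparison. All 11 had a log2 change below 0 with dexamethasone and 8 with dexamethasone plus clenbuterol, beside 6199 and 6315 of all 13660 genes. Their mean level was -0.06 to 1.85 with dexamethasone, 0.88 to 2.04 with dexamethasone plus clenbuterol and 1.69 to 2.11 in control. Of 14 tested leukocyte markers, 12 were below 0 with dexamethasone, and 1 passed, beside 0.586% of all genes called lower. That was CD3E, a T cell gene, which fell by 1.74 (limma adjusted p = 0.0311). The CD3E call held in 3 of the 10 other settings, not with either scan block, and for 5 of the 12 animals left out singly. Without dexamethasone replicate 1, 8 leukocyte markers passed, in a fit that called 261 of all 13660 genes, 237 of them lower. Mean leukocyte marker levels were -4.47 to -2.11 with dexamethasone, -3.35 to -2.71 with dexamethasone plus clenbuterol and -2.81 to -2.36 in control.

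Dexamethasone replicate 1, the lowest animal for PDK4 and UCP3, was at the extreme of several marker lists. Of all 12 animals it had the lowest mean level of fast fibre genes (3.96, the others 4.77 to 6.07) and of skeletal muscle markers (6.84, the others 7.08 to 7.62). It had the highest mean level of slow fibre genes (6.03), narrowly above dexamethasone replicate 3 (5.99). Its mean level of leukocyte markers was also the highest (-2.11), with control replicate 3 next (-2.36). For fibroblast markers it was the highest of its group (1.85). Without this animal the change with dexamethasone was -1.33 for PDK4 and -0.43 for UCP3. The part of fibre type and of other cells in the PDK4 and UCP3 values was not tested.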

How the data were processed

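RNA from biceps brachii of 12 cattle was hybridised to 1-colour Agilent arrays, 4 per group. The deposited scanner files hold spot intensity on a linear scale, made with Agilent Feature Extraction 9.5.1.1 per the file headers. The authors' deposited value table also holds linear intensity, with its making not given in the sources used here. The processed signals were put on a log2 scale relative to the 75th percentile of the array's non-control spots, and spots of a probe were averaged, outlier-marked spots left out. A spot counted as detected when the software marked it well above background. Probes with at least 0.5 of their spots detected on at least 4 of 12 arrays were kept (14703), and the probe with the highest mean stood for a gene (13660 genes). Gene names came from a RefSeq gene table (ARS-UCD2.0, names only). Of 21475 probes, 4144 kept the file's name.

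The 3 groups entered a single fit of all 12 arrays, made with lmFit and eBayes of limma (version 3.58.1, R version 4.3.3) and tested two-sided. The differences between PDK4 and the other kinases were compared with exact permutation tests, also within scan strata. The scripts were tested on simulated data. Named genes are all 7 listed genes, the fixed regulators and complex subunits, the members of each list with the smallest p, and the 5 genes most correlated with PDK4 and with UCP3. PDP2, PDPR, CD3E and single markers of fat, leukocytes and tissues not sampled were named after their values were seen. The genes, the 16 gene lists and the tests were chosen with earlier results of these data known. Alternatives covered background correction, normalization, the authors' value table, the probe filter, the choice of probe, slide and scan blocks, the samples in the fit and each animal left out. The number of arrays limits the precision.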

Additional observations from a re-analysis of the deposited data

Results flagged for a closer look

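Among the 4 control animals, replicate 2 stood apart for PDK3 at -0.59, with the other 3 between -0.14 and -0.09 on the log2 scale relative to the 75th percentile. Its gap to the nearest of them, divided by the range of the group, exceeded Dixon's 95% critical value for 4 samples. Of 24 groups of 4 tested in this way (8 probes in 3 groups), this was the only 1 past the critical value, and chance alone gives about 1 in 20.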

How the results depend on the processing

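The sign of the PDK4 change against control was the same under every alternative, for each treatment and for both together. With dexamethasone the PDK4 change was -1.73 with the authors' value table (limma adjusted p = 0.0498, its only pass), -2.36 within scan day 2 and -0.99 outside it. With dexamethasone plus clenbuterol it was -2.20 within scan day 2 and -0.73 outside it, and for both treated groups -2.28 and -0.86. With a fixed block for scan day the limma adjusted p of PDK4 with dexamethasone was 0.218. With 1 animal left out at a time, the PDK4 change ran from -1.81 to -1.33 with dexamethasone, from -1.57 to -1.20 with dexamethasone plus clenbuterol, and from -0.076 to 0.40 between the treated groups, where the sign turned without dexamethasone replicate 1. The cause of these shifts was not tested.

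Relative to PDK1, PDK2 and PDK3, the PDK4 shift with 1 animal left out ran from -2.33 to -1.80, -1.99 to -1.56 and -1.88 to -1.28 with dexamethasone. With dexamethasone plus clenbuterol the ranges were -1.81 to -1.28, -1.44 to -0.94 and -1.47 to -1.04. Adjusted exact permutation p-values passed 0.05 in some and not in others, arms then holding 3 animals. Within scan day 2 these shifts were -2.997, -2.42 and -2.40 with dexamethasone and -2.50, -1.98 and -1.90 with dexamethasone plus clenbuterol. Outside it they were -1.28, -1.46 and -0.46, and -0.68, -0.46 and -0.73, in the same order, an alternative chosen after seeing the data.

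Changes that had not passed turned sign in places. Outside scan day 2, PDP1 was 0.35 with dexamethasone and 0.14 for both treated groups. Between the treated groups PDK3 was 0.53 and UCP3 -0.33 outside scan day 2, each set being 1 animal against 1, and PDP1 was 0.10 within it. The other sign turns by scan day were PDK3 with dexamethasone (0.039 within), PDK1 and PDK3 with dexamethasone plus clenbuterol (-0.047 and 0.0031 outside) and PDK2 for both treated groups (0.098 outside). PDK3 with dexamethasone was 0.039 with a fixed block for scan day and ran from -0.18 to 0.15 with 1 animal left out, and between the treated groups it ran from -0.30 to 0.028. PDP1 was 0.025 with dexamethasone and 0.012 for both treated groups under a 2-level scan block. Between the treated groups PDP1 was 0.18 with the mean of its probes and 0.10 under a fixed block for scan day, and ran from -0.26 to 0.20 with 1 animal left out. UCP3 between the treated groups ran from -0.38 to 0.68. PDK2 for both treated groups was 0.025 under the 2-level scan block and ran from -0.16 to 0.075.

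The number of genes called moved widely. With dexamethasone it was 25 with no filter on dim probes, 13 with a 2-level scan block and 0 with a fixed block for scan day. With dexamethasone plus clenbuterol it was 3 with quantile normalization or only the 2 groups compared, 2 with the mean of a gene's probes, and 0 with no filter, with detection on all 12 arrays, with slide as a random block and with either scan block. Between the treated groups it was 1 with normexp or detection on all 12 arrays and 0 with quantile normalization, no filter, the mean of probes, each block and the 2 groups only. For both treated groups it was 21 with the value table, 9 with no filter, 18 with the slide block, 2 and 0 with the 2-level and the day-by-day scan block. With 1 animal left out the counts ran from 24 to 261, 0 to 11, 0 to 74 and 0 to 106 in that order.

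No paired analysis was possible because the labels give no replicate numbers that the groups share.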
